A study of Mus musculus with 6 samples.

Results

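The genes of cholesterol synthesis and of SREBP2 sterol sensing were followed in eWAT, the white fat pad attached to the epididymis, of mice with lung cancer cachexia and of control mice. The set holds 29 genes chosen by name: 20 encode enzymes from acetyl-CoA to cholesterol, and 9 encode SREBP2, the proteins that hold or cut it, and proteins of sterol uptake and transfer. All 29 were found among the 54532 genes of the count table, and 28 of them were among the 16003 genes with enough reads to be tested. Fdps was the gene left out. The cachexia group held 3 male C57BL/6 mice inoculated under the skin with LLC cells, a mouse Lewis lung carcinoma line, and the control group held 3 male C57BL/6 mice without the tumor. The mice of the study were 6 to 10 weeks old, no genetic change is given for either group, and the pads were taken on day 21 after inoculation. What the control mice received in place of cells is not given in the sources used here. Each library was made from total RNA of whole tissue, so all cell types of the pad contributed, and fewer cells of a type and less RNA per cell cannot be told apart.

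Cholesterol is built from acetyl-CoA by way of mevalonate, isoprenoid units, squalene and lanosterol, and most of the enzymes sit in or on the endoplasmic reticulum. SREBP2 is made as a membrane protein of that organelle. When sterols are plentiful, INSIG proteins hold the complex of SREBP2 and its escort SCAP there. When sterols run low, SCAP carries SREBP2 to the Golgi, where site-1 protease and site-2 protease cut it and release a factor that binds sterol regulatory elements, often together with NF-Y at CCAAT boxes and with Sp1 at GC boxes. Fat cells store a large pool of unesterified cholesterol in and around their lipid droplets, much of it taken up from lipoproteins. RNA levels carry no measure of the cut form of SREBP2.

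The upstream bases of 6 genes are shown: 4 lower genes and the pair Insig1 and Insig2, which act on the same complex. Among lower genes, those with a match to the sterol regulatory element searched for were taken first. That 3 of the 4 hold a match therefore follows from the choice. The sequences are those of RefSeq on GRCm38.p6, limited to bases outside annotated exons except for Msmo1, whose match lies in an annotated exon and is shown with 30 bases around it. Capitals mark matches to TCACNCCA, a form of the element, and to CCAAT, on either strand (ATTGG is CCAAT on the other strand).
Hmgcs1, chr13:119690101-119690350, + strand: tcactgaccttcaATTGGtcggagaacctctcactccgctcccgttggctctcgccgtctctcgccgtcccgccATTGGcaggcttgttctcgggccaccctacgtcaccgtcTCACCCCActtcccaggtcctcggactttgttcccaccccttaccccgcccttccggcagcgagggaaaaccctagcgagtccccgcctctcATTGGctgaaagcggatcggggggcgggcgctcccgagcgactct
Srebf2, chr15:82147019-82147180, + strand: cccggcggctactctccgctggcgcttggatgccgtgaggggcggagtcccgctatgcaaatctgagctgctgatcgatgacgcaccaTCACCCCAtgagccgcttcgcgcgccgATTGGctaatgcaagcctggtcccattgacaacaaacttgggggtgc
Msmo1, chr8:64733737-64733766, − strand: tctcactattcTCACTCCAtccgcgcagcc
Nsdhl, chrX:72918412-72918520, + strand: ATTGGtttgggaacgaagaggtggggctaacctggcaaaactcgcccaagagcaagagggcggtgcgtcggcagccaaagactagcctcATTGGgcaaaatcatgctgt
Insig1, chr5:28071162-28071362, + strand: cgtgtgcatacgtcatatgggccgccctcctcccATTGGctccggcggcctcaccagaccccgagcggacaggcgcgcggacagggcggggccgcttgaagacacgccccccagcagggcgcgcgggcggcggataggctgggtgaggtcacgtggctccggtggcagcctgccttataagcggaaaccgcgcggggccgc
Insig2, chr1:121332590-121332839, − strand: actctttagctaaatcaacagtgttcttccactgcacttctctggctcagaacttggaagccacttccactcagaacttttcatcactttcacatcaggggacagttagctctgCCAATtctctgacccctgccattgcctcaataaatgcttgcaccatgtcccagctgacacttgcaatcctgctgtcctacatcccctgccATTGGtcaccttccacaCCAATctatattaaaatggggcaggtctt

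The match in Hmgcs1 began 137 bases before its start, that in Srebf2 162 bases before and that in Msmo1 177 bases before. The exact letters TCACCCCA stood within 250 bases before a start in Hmgcs1 and Srebf2, that is in 2 of the 25 genes of the set with a promoter entry, against 1.54% of 27025 genes with an entry. TCACNCCA stood in 3 of the 25, the same pair and Msmo1, against 4.2% of genes. CCAAT stood in 21 of 25 against 37.49%, and GGGCGG, the core of a GC box, in 22 of 25 against 35.36%. CACGTG, the E-box read by several helix-loop-helix factors, stood in 6 of 25 against 6.86% of genes. The 27025 genes were not limited to those with enough reads to be tested, whereas all 25 members were. These shares thus compare unlike sets, and the differences were not tested. The printed Hmgcs1 and Insig2 windows hold 3 CCAAT boxes each, that of Nsdhl 2, and those of Srebf2 and Insig1 1 each. Insig2 has other promoter entries with later starts, and the 250 bases before those starts held 0 CCAAT boxes. Among the genes that fell in cachexia CCAAT was present in 14 of 15, and among the others in 7 of 10. No match in a printed window overlapped another. Every match to TCACCCCA is also a match to TCACNCCA, in which N is any base. Fdft1, Fdps, Sqle and Stard4 had no entry. A match describes letters and not binding.

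The libraries held 14928766 to 18855546 counted reads, with the 3 cachexia libraries below the 3 control libraries. Levels are given as CPM, the read count of a gene relative to its library's total, scaled with TMM factors of 0.937 to 1.07, and a fold change is cachexia over control from edgeR's quasi-likelihood test, with p-values adjusted by the Benjamini-Hochberg method over all 16003 tested genes and a threshold of 0.05. Labels do not say more of the replicates than that they are separate samples, so the p-values measure the spread between these samples. The 14 adipocyte markers summed to 28292 to 36659 CPM in control and 31015 to 47858 CPM in cachexia, and 10 epididymal epithelium markers summed to at most 4.36 CPM in any library.

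Transcripts of the pathway were mostly lower in the cachectic pads. Of the 28 tested genes, 16 fell, 1 rose and 11 did not pass the test, while 8.63% of all tested genes fell and 9.0% rose. The median log2 fold change of the 28 was -0.87, beside -0.0031 over all tested genes. Of the 19 tested enzymes 14 fell and none rose, with a median of -1.18, and of the 9 genes of sensing, uptake and transfer 2 fell and 1 rose, with a median of -0.26. In 19 of the 28 genes the values of the groups did not overlap, beside 40.5% of all tested genes. The number that fell was 10 without control replicate 3, the lowest count when a mouse was left out.

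**Figure D1:**
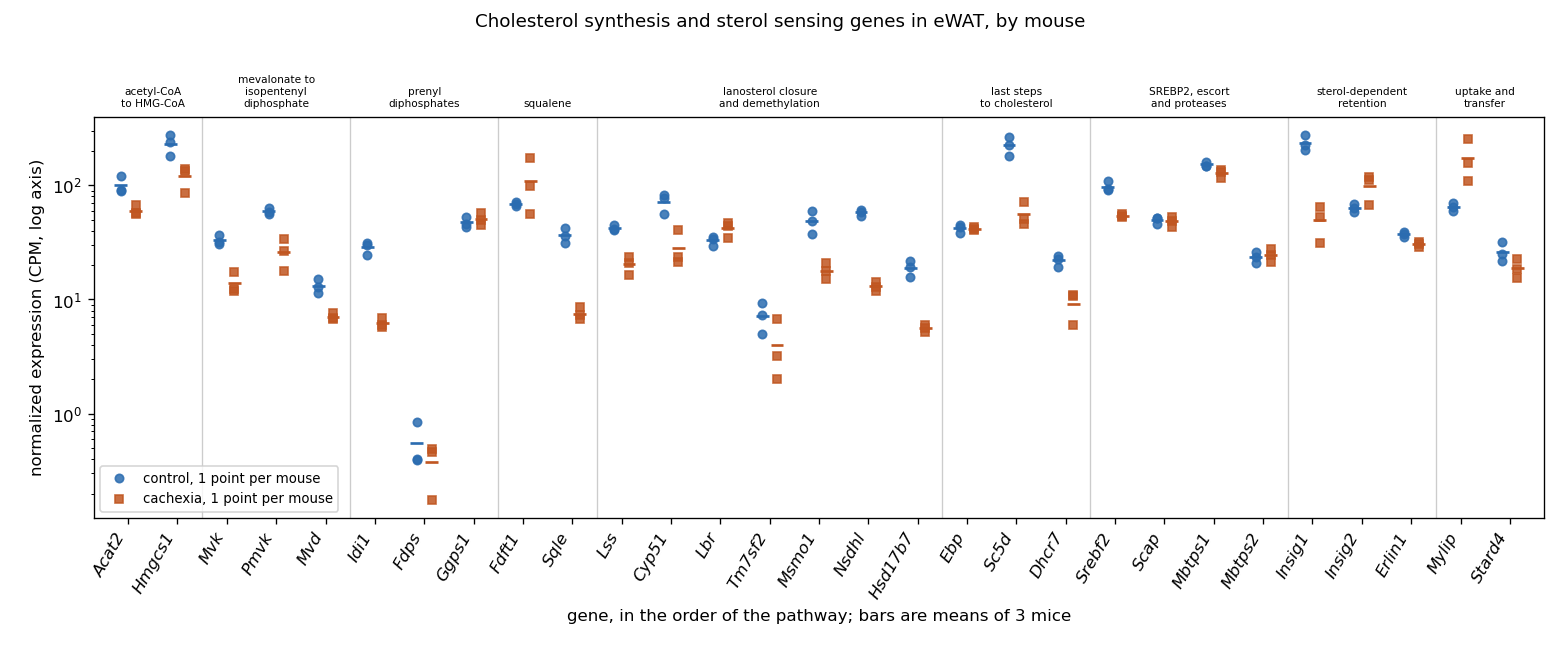
Normalized expression in CPM (log axis) of the 29 genes in the order of the pathway, with blue circles for the 3 control mice, orange squares for the 3 cachexia mice and bars for group means. Most enzymes from Acat2 to Dhcr7 lie lower in cachexia (Idi1 28.5 against 6.20 CPM on average), while Ggps1, Ebp and Scap lie level and Mylip lies higher.

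The median enzyme was lowered in each of the cachexia mice. Relative to the control mean on the log2 scale, the median over the 19 enzymes was -1.0 in cachexia mouse 1, -0.98 in mouse 2 and -1.32 in mouse 3. In the control mice it was -0.01, 0.01 and 0.04, values held near 0 because each enzyme was set against the mean of these same mice. Of the 19 enzymes, 17 lay below the control mean in cachexia mouse 1, and 16 in each of the others. Among the 16 genes that fell, cachexia mouse 3 had the lowest value of its group in 8 and each of the others in 4.

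**Figure D2:**
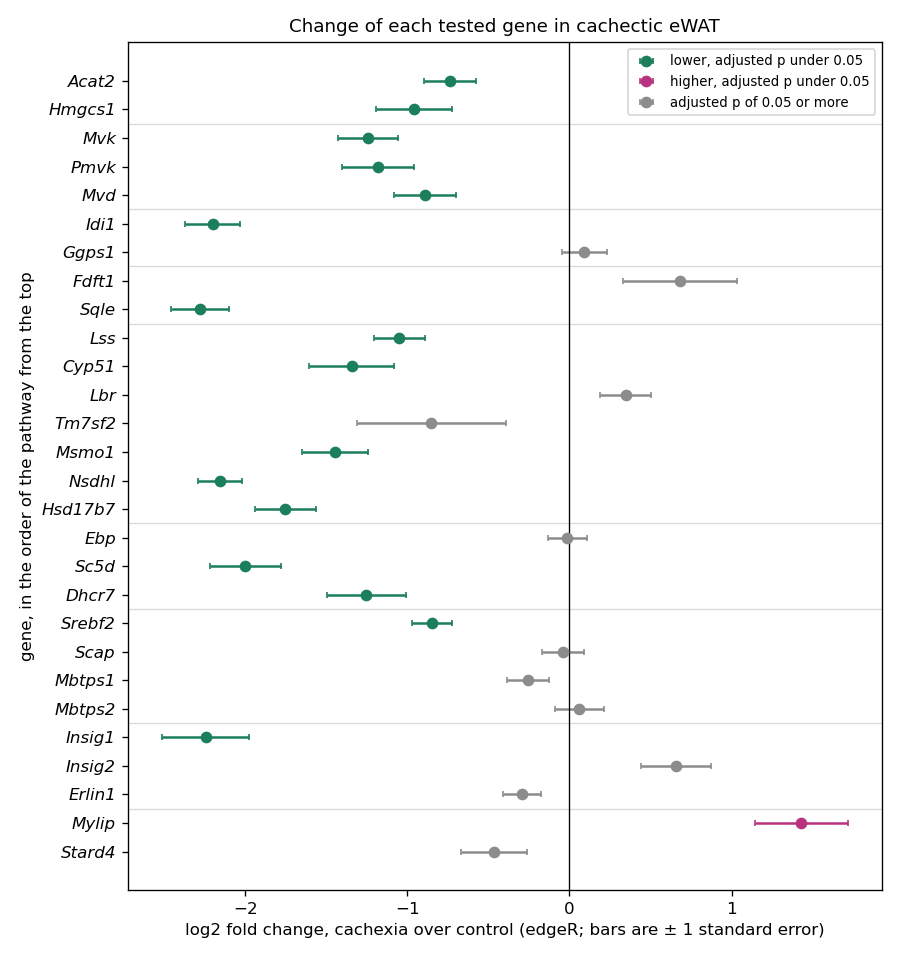
Log2 fold change, cachexia over control, of the 28 tested genes in pathway order from the top, with bars of 1 standard error and green, magenta and grey for lower, higher and not passing an adjusted p of 0.05. The enzymes between -2.28 (Sqle) and -0.73 (Acat2) include 1 that did not pass, Tm7sf2 (-0.85), and Ggps1, Fdft1, Lbr and Ebp lie between -0.01 and 0.68.

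Both enzymes that make HMG-CoA fell. Acat2 (ENSMUSG00000023832, chr17:12942890-12960747, − strand), the cytosolic thiolase that joins acetyl-CoA units, measured 90.4, 121 and 89.0 CPM in control and 56.9, 56.3 and 67.1 CPM in cachexia. Its log2 fold change was -0.73 (SE 0.16, adjusted p = 0.0207). Hmgcs1 (ENSMUSG00000093930, chr13:119690379-119708260, + strand), the cytosolic HMG-CoA synthase and a classical SREBP target, measured 181, 276 and 239 CPM in control and 139, 134 and 85.2 CPM in cachexia. The highest cachexia value lay below the lowest control value in both genes. The log2 fold change of Hmgcs1 was -0.96 (SE 0.24, adjusted p = 0.0299), the weakest p among the genes that fell. Without control replicate 2, control replicate 3, cachexia replicate 1 or cachexia replicate 2, Acat2 missed the threshold (adjusted p 0.0552 to 0.0655), and Hmgcs1 missed it without any of these or cachexia replicate 3 (adjusted p 0.051 to 0.101). Of the words of 100 bases in Acat2 transcripts, 28.87% also occur in Acat3 or Tcp1, so reads could be shared with those genes.

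The 3 enzymes from mevalonate to isopentenyl diphosphate all fell. Mvk (ENSMUSG00000041939, chr5:114444269-114460591, + strand), mevalonate kinase, measured 32, 30.7 and 36.5 CPM in control and 17.6, 12.3 and 11.9 CPM in cachexia, a log2 fold change of -1.24 (SE 0.19, adjusted p = 0.00593). Pmvk (ENSMUSG00000027952, chr3:89454541-89469013, + strand), which adds the next phosphate, measured 58.5, 55.7 and 63.1 CPM in control and 26.8, 17.7 and 33.8 CPM in cachexia, a log2 fold change of -1.18 (SE 0.22, adjusted p = 0.0127). Mvd (ENSMUSG00000006517, chr8:122433601-122443422, − strand), the decarboxylase that forms isopentenyl diphosphate, measured 15.1, 11.5 and 12.7 CPM in control and 6.71, 6.88 and 7.61 CPM in cachexia, a log2 fold change of -0.89 (SE 0.19, adjusted p = 0.0197). None of the 3 genes overlapped between groups, and the cachexia mice were spread most in Pmvk. Without control replicate 3 the adjusted p was 0.0567 for Pmvk and 0.078 for Mvd, and without cachexia replicate 1 it was 0.0554 for Mvd.

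At the prenyl diphosphates Idi1 fell, Ggps1 did not pass the test and Fdps could not be tested. Idi1 (ENSMUSG00000058258, chr13:8885501-8892451, + strand), which turns isopentenyl into dimethylallyl diphosphate, measured 24.5, 31.2 and 29.9 CPM in control and 6.94, 5.96 and 5.70 CPM in cachexia. By its log2 fold change of -2.20 (SE 0.17, adjusted p = 0.000878), 21.8% of the control level remained. Ggps1, which makes geranylgeranyl diphosphate for protein prenylation, measured 47.6 ± 4.95 CPM in control and 50.8 ± 6.40 CPM in cachexia (SD, n = 3 each). Its log2 fold change was 0.09 (SE 0.14, adjusted p = 0.685), and the groups overlapped. Fdps, the farnesyl diphosphate synthase between these enzymes, had counts of 17, 7 and 7 reads in control and 3, 8 and 7 reads in cachexia, too few for a test. Of the 100-base words in Fdps transcripts, 21.38% also occur in Gm43738, Gm3571 or Gm5873, and 21.9% of those of Idi1 occur in Gm13502, Gm48574 or Gm35570, so reads of either gene could have been divided or left uncounted. Gm3571 had 57, 51 and 51 reads in control and 23, 23 and 12 in cachexia, a log2 fold change of -1.28 (adjusted p = 0.0431). Gm5873 had a log2 fold change of -1.51 (adjusted p = 0.0527), and Gm43738 had 0 reads in every library. Whether such reads came from Fdps was not tested.

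Of the enzymes on either side of squalene, Sqle fell and Fdft1 did not pass the test. Sqle (ENSMUSG00000022351, chr15:59315077-59331192, + strand), squalene epoxidase, a rate-limiting oxygenation of the pathway, measured 42.6, 31.1 and 35.8 CPM in control and 6.71, 8.60 and 7.28 CPM in cachexia. The highest cachexia value, 8.60 CPM, was far below the lowest control value of 31.1 CPM, and the log2 fold change of -2.28 (SE 0.18, adjusted p = 0.00094) was the largest decrease of the set. Fdft1 (chr14:63145150-63179578, − strand), squalene synthase, the entry to the sterol branch, measured 68.2, 65.5 and 70.8 CPM in control and 98.3, 174 and 56.0 CPM in cachexia. Cachexia mice 1 and 2 lay above all control mice and mouse 3 lay below them, for a log2 fold change of 0.68 (SE 0.35, adjusted p = 0.212). Without cachexia replicate 3 the Fdft1 value was 1.00 (adjusted p = 0.0377), and without cachexia replicate 2 it was 0.18 (adjusted p = 0.627). Of the 4227 exon bases of Fdft1, 774 (18.31%) also lie in exons of Ctsb, which encodes cathepsin B, on the other strand. Whether counting used strand is not given in the sources used here. Ctsb measured 1531, 1807 and 2014 CPM in control and 1423, 1671 and 1382 CPM in cachexia, and its part in the Fdft1 counts was not tested.

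Of the 7 genes of lanosterol closure and demethylation, 5 fell. Lss (ENSMUSG00000033105, chr10:76531588-76557138, + strand), which closes the sterol rings, measured 40.6, 44.8 and 41.2 CPM in control and 20.9, 23.7 and 16.5 CPM in cachexia, a log2 fold change of -1.05 (SE 0.16, adjusted p = 0.00625). Cyp51 (ENSMUSG00000001467, chr5:4081145-4104746, − strand), the lanosterol demethylase, measured 77.1, 56.3 and 82.8 CPM in control and 21.5, 40.2 and 23.5 CPM in cachexia, a log2 fold change of -1.34 (SE 0.26, adjusted p = 0.0144). The groups stayed apart in both genes, with cachexia mouse 2 the highest of its group. Without control replicate 3 the adjusted p of Cyp51 was 0.0624.

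The enzymes that remove the methyl groups at the next position fell together. Msmo1 (ENSMUSG00000031604, chr8:64718139-64733792, − strand), the methyl sterol oxidase, measured 59.3, 37.5 and 49.1 CPM in control and 15.1, 17.7 and 20.7 CPM in cachexia, a log2 fold change of -1.45 (SE 0.20, adjusted p = 0.00483). Nsdhl (ENSMUSG00000031349, chrX:72918557-72958514, + strand), the decarboxylating dehydrogenase, measured 61.2, 58.3 and 54.2 CPM in control and 14.3, 11.9 and 12.8 CPM in cachexia. Replicates of Nsdhl lay close together, with a coefficient of variation of 6.02% in control and 9.24% in cachexia. Hsd17b7 (ENSMUSG00000026675, chr1:169949535-169969241, − strand), the ketosteroid reductase that ends each round, measured 21.5, 15.9 and 19.3 CPM in control and 6.01, 5.22 and 5.57 CPM in cachexia. Log2 fold changes were -2.15 for Nsdhl (SE 0.13, adjusted p = 0.000878) and -1.75 for Hsd17b7 (SE 0.19, adjusted p = 0.0022). By these fold changes, 36.7%, 22.5% and 29.7% of the control level remained in the 3 genes, in the order named. Erg28, the scaffold protein of these enzymes, fell as well, from 19.5 ± 4.26 to 11 ± 0.630 CPM (SD, n = 3 each), a log2 fold change of -0.83 (adjusted p = 0.0246).

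Lbr and Tm7sf2 encode the sterol reductases that follow the demethylation by Cyp51, and Lbr also anchors chromatin at the nuclear envelope. Lbr measured 33.7, 35.5 and 29.6 CPM in control and 44.3, 47.0 and 34.4 CPM in cachexia, a log2 fold change of 0.35 (SE 0.16, adjusted p = 0.160). Tm7sf2 measured 5.02, 9.23 and 7.37 CPM in control and 3.21, 2.03 and 6.75 CPM in cachexia, a log2 fold change of -0.85 (SE 0.46, adjusted p = 0.231). Neither passed the test, and in both genes 1 cachexia mouse lay inside the control range. Per length, Lbr was the more abundant in every mouse: the Tm7sf2 to Lbr ratio of FPKM values (reads relative to gene length and library size) was 0.139, 0.232 and 0.225 in control and 0.0719, 0.0466 and 0.179 in cachexia. The mean log2 ratio was 1.20 lower in cachexia (log2 difference -1.20, two-sided exact permutation test, p = 0.2, with 0.1 the smallest p that 3 against 3 mice allow). With a pseudocount of 1 in place of 0.1 the difference was -0.72. In GENCODE M21, Tm7sf2 shares 12.08% of its exon bases with Vps51 on the same strand, and Lbr shares 10.69% with neighbors. Tm7sf2 has 4403 exon bases there but a length of 5593 in the count table, so the share in its counted form is not given.

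Of the last 3 steps, Sc5d and Dhcr7 fell and Ebp did not pass the test. Sc5d (ENSMUSG00000032018, chr9:42251595-42264256, − strand), the sterol desaturase, measured 181, 224 and 265 CPM in control and 71.0, 51.0 and 45.5 CPM in cachexia, so that 25% of the control mean remained. Its log2 fold change was -2.0 (SE 0.22, adjusted p = 0.0025). Dhcr7 (ENSMUSG00000058454, chr7:143823145-143848410, + strand), the reductase that yields cholesterol itself, measured 19.3, 23.9 and 22.8 CPM in control and 10.7, 10.9 and 6.03 CPM in cachexia, a log2 fold change of -1.25 (SE 0.24, adjusted p = 0.0141). Ebp, the sterol isomerase that works just before Sc5d, measured 44.8, 38.4 and 42.8 CPM in control and 41.5, 40.4 and 43.0 CPM in cachexia. Ebp values interleaved, with a log2 fold change of -0.01 (SE 0.12, adjusted p = 0.951) whose sign turned with scaling to plain library totals (0.03). Without control replicate 2 or 3 the adjusted p of Dhcr7 was 0.0551 or 0.0631.

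Among the sensing genes, the transcripts of Srebf2 and Insig1 fell. Srebf2 (ENSMUSG00000022463, chr15:82147181-82205379, + strand), which encodes SREBP2, measured 108, 92.3 and 91.5 CPM in control and 55.8, 54.0 and 52.4 CPM in cachexia, a log2 fold change of -0.85 (SE 0.12, adjusted p = 0.00514). The coefficient of variation of the cachexia values was 3.12%, and the highest was well under the lowest control value. Scap, which encodes the escort, measured 49.8 ± 3.52 CPM in control and 48.5 ± 5.04 CPM in cachexia (SD, n = 3 each). Mbtps2, site-2 protease, measured 23.6 ± 2.47 and 24.6 ± 3.07 CPM (SD, n = 3 each). The log2 fold changes were -0.04 for Scap (SE 0.13, adjusted p = 0.854) and 0.06 for Mbtps2 (SE 0.15, adjusted p = 0.816), and that of Scap turned to 0.0071 with plain library totals. Mbtps1, site-1 protease, measured 149, 148 and 160 CPM in control and 137, 130 and 115 CPM in cachexia. The Mbtps1 groups did not overlap, but its log2 fold change of -0.26 (SE 0.13, adjusted p = 0.20) missed the threshold. Mbtps2 shares 28.37% of its exon bases with Yy2, a gene inside it on the same strand.

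Of the INSIG genes, Insig1 fell and Insig2 did not pass the test. Insig1 (ENSMUSG00000045294, chr5:28071363-28078662, + strand), itself an SREBP target and thus part of a feedback loop, measured 227, 205 and 276 CPM in control and 53.1, 64.9 and 31.5 CPM in cachexia. All cachexia mice lay far below all control mice, with a log2 fold change of -2.24 (SE 0.27, adjusted p = 0.00315). Insig2 (chr1:121304353-121332589, − strand), which is less dependent on SREBPs, measured 58.6, 68.1 and 62.7 CPM in control and 112, 67.0 and 119 CPM in cachexia. Cachexia mice 1 and 3 stood above the controls and mouse 2 stood within them, for a log2 fold change of 0.65 (SE 0.22, adjusted p = 0.0733). Without cachexia replicate 2 the Insig2 value was 0.88 (adjusted p = 0.0115), and with DESeq2 its adjusted p was 0.0347. Erlin1, an endoplasmic reticulum membrane protein that binds cholesterol and acts on the same complex, measured 39.0, 35.1 and 37.2 CPM in control and 30.4, 31.8 and 28.7 CPM in cachexia. The Erlin1 groups did not overlap, but its log2 fold change of -0.29 (SE 0.12, adjusted p = 0.127) missed the threshold.

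Per length, Insig1 was the more abundant INSIG transcript in every control mouse but in only 1 cachexia mouse. The Insig1 to Insig2 ratio of FPKM values was 4.33, 3.37 and 4.93 in control and 0.534, 1.09 and 0.300 in cachexia. The lowest control ratio was thus above the highest cachexia ratio. The mean log2 ratio was 2.06 ± 0.278 in control and -0.84 ± 0.932 in cachexia (SD, n = 3 each), a difference of -2.90 (two-sided exact permutation test, p = 0.1, the smallest p that this design allows).

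**Figure D3:**
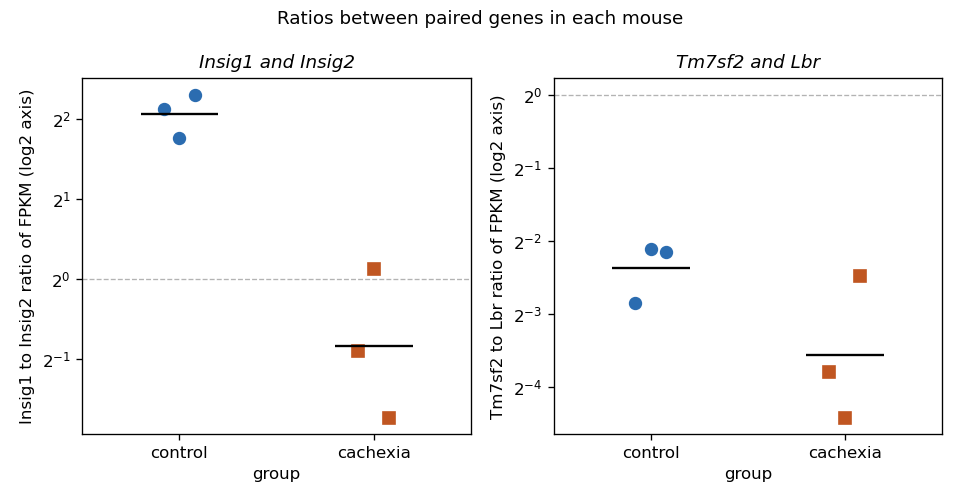
FPKM ratio within each mouse (log2 axes) of Insig1 to Insig2 on the left and of Tm7sf2 to Lbr on the right, with blue circles for control, orange squares for cachexia, bars at the group mean of the log2 ratio, and a dashed line at equal levels. The INSIG ratios of control (3.37 to 4.93) lie above all those of cachexia (0.300 to 1.09), whereas 1 cachexia mouse lies inside the control range of Tm7sf2 to Lbr.

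The uptake and transfer genes held the only increase of the set. Mylip (ENSMUSG00000038175, chr13:45389742-45412022, + strand), a ubiquitin ligase that marks lipoprotein receptors for degradation and answers to sterol-activated LXR receptors, measured 63.9, 59.8 and 69.5 CPM in control and 110, 255 and 155 CPM in cachexia. Every cachexia mouse exceeded every control mouse, with a log2 fold change of 1.43 (SE 0.29, adjusted p = 0.0154) and a coefficient of variation of 43.0% in cachexia against 7.55% in control. Without control replicate 2 or 3 the adjusted p of Mylip was 0.0618 or 0.0611. Stard4 (chr18:33199355-33213862, − strand), a soluble sterol carrier, measured 32, 21.6 and 24.9 CPM in control and 15.6, 22.6 and 18.6 CPM in cachexia. Its groups overlapped, with a log2 fold change of -0.47 (SE 0.20, adjusted p = 0.147).

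By FPKM in control, Insig1 was the most abundant gene of the set at 75.4 ± 11.6 (SD, n = 3), followed by Hmgcs1 at 49.9 ± 10.2, Sc5d at 45.3 ± 8.41 and Acat2 at 38.8 ± 6.86. Neighbors from Hmgcs1 to Acat2 did not differ beyond their spread. Tm7sf2, at 1.27 ± 0.370, was the lowest of the 28 tested genes. By FPKM in cachexia, Mylip stood highest at 52.4 ± 22.4, followed by Insig2 at 28.0 ± 7.97, Hmgcs1 at 25.4 ± 6.35, Fdft1 at 25.3 ± 13.8 and Acat2 at 23.1 ± 2.31. Insig2, Hmgcs1, Fdft1 and Acat2 did not differ beyond their spread there, and Insig1 had an FPKM of 15.8 ± 5.35.

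Gene lists next to the pathway were read for comparison, with the same background of 8.63% lower and 9.0% higher. Of 10 tested genes that supply acetyl-CoA or handle ketone bodies, 4 fell. Acly, which makes cytosolic acetyl-CoA from citrate, went from 1423 ± 940 to 206 ± 74.5 CPM (SD, n = 3 each), a log2 fold change of -2.79 (adjusted p = 0.0158). Acss2, which makes it from acetate, had a log2 fold change of -1.93 (adjusted p = 0.0198), Aacs, which activates acetoacetate in the cytosol, one of -1.34 (adjusted p = 0.0107), and Slc25a1, the citrate carrier, one of -1.40 (adjusted p = 0.0299). Without control replicate 3 no gene of this list fell, and without cachexia replicate 1 the count was 2.

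Of 11 tested electron donors and partners of the sterol enzymes, 2 fell and none rose. Cyb5b, an outer mitochondrial membrane cytochrome, went from 715 ± 117 to 172 ± 38.8 CPM (SD, n = 3 each), a log2 fold change of -2.05 (adjusted p = 0.0025), and Erg28 was the other. The lower count was 1 without control replicate 1, control replicate 3, cachexia replicate 1 or cachexia replicate 2, and 1 gene rose without cachexia replicate 3. DESeq2 called 4 genes of the list lower and 1 higher, and plain library totals gave 1 lower and 1 higher. Of 15 tested genes of the non-sterol branches, 2 rose and 1 fell. Rabggtb, a subunit of the transferase that prenylates Rab proteins, had a log2 fold change of 1.07 (adjusted p = 0.00358), Nus1, a subunit of the dolichol-forming prenyltransferase, one of 0.80 (adjusted p = 0.00696), and Dolk, dolichol kinase, one of -0.74 (adjusted p = 0.00703). The 15 genes had a median of -0.22, against -1.18 for the 19 enzymes of the sterol pathway. That difference was not tested.

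Of 19 tested genes of sterol-regulated degradation and SREBP processing, 3 fell and 2 rose. Rnf145, a ubiquitin ligase of sterol-dependent degradation, went from 102 ± 4.93 to 46.6 ± 8.69 CPM (SD, n = 3 each), a log2 fold change of -1.13 (adjusted p = 0.00493). Erlin2, the partner of Erlin1, had a log2 fold change of -0.62 (adjusted p = 0.0271), and Sec23a, a coat protein of vesicles that leave for the Golgi, one of -0.56 (adjusted p = 0.0313). Marchf6, the ubiquitin ligase that targets squalene epoxidase, rose from 125 ± 16.2 to 222 ± 22.0 CPM (SD, n = 3 each), a log2 fold change of 0.83 (adjusted p = 0.0119), and Aup1, a membrane adaptor of ubiquitin transfer, had one of 0.74 (adjusted p = 0.0225). The counts were 1 lower and none higher without control replicate 3, and 1 lower and 1 higher without control replicate 2 or without cachexia replicate 2. Of 17 tested genes of sterol uptake, transfer and esterification, 3 rose and none fell. Scarb1, the HDL receptor, went from 212 ± 4.91 to 555 ± 226 CPM, and Stard5, a sterol carrier, from 23.4 ± 1.89 to 51.3 ± 15.1 CPM (SD, n = 3 each). Their log2 fold changes were 1.39 (adjusted p = 0.0147) and 1.13 (adjusted p = 0.012). Soat2, an acyltransferase that esterifies cholesterol, rose from a very low 0.379 ± 0.238 to 3.54 ± 1.26 CPM (SD, n = 3 each), a log2 fold change of 3.19 (adjusted p = 0.0111). At that control level Soat2 entered the test through its cachexia values, so its call depends on the read filter. With at least 10 counts required in every sample, 2 genes of the list rose. Without control replicate 2 or 3, 1 gene of the list rose, and without cachexia replicate 2, 2 genes fell. DESeq2 called 6 genes of the list higher and 1 lower, and without a filter on low counts 4 were higher and 1 lower.

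The transcript of SREBP1, the sister factor that drives fatty acid synthesis, was lower together with most of the fatty acid synthesis genes listed. Srebf1 measured 514, 579 and 602 CPM in control and 143, 264 and 83.8 CPM in cachexia, a log2 fold change of -1.79 (adjusted p = 0.0188), so the transcripts of both SREBP genes were lower. Of the 14 tested genes of that list 8 fell and 1 rose, with a median of -2.03. Fasn, fatty acid synthase, had a log2 fold change of -4.34 (adjusted p = 0.00483), Pnpla3, a lipid droplet hydrolase, one of -3.77 (adjusted p = 0.00133), Elovl6, a fatty acid elongase, one of -3.53 (adjusted p = 0.00516) and Thrsp, a promoter of lipogenesis, one of -2.34 (adjusted p = 0.00483). Acacb, the mitochondrial acetyl-CoA carboxylase, rose by 1.54 on the log2 scale (adjusted p = 0.0082).

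**Figure D4:**
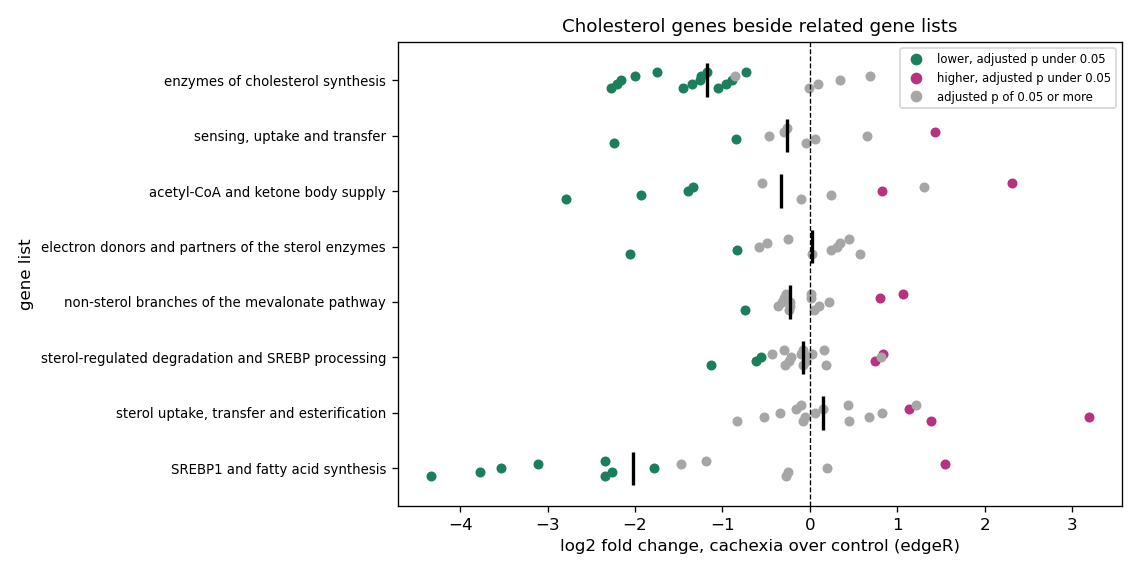
Log2 fold change, cachexia over control, of each tested gene in 8 gene groups, with green, magenta and grey points for lower, higher and not passing an adjusted p of 0.05, and black bars for medians. The enzymes of cholesterol synthesis (median -1.18) and the SREBP1 list (median -2.03) lie to the left of zero, and the other 6 groups have medians between -0.33 and 0.15.

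The markers of several cell types moved with the groups, and their part in the result was not tested. Fat progenitor and fibroblast markers summed to 4104 to 4960 CPM in control and 1012 to 1393 CPM in cachexia, with 5 of 10 lower and 1 higher (Col3a1 -3.18, Dpt -1.63, Ly6a 0.97 on the log2 scale). Dividing cell markers summed to 28.5 to 52.9 CPM in control and 8.16 to 18.9 CPM in cachexia, with 5 of 8 lower, among them Mki67 (-2.01) and Top2a (-1.42). Neutrophil markers summed to 32.4 to 49.7 CPM in control and 259 to 819 CPM in cachexia with 9 of 10 tested higher (S100a8 5.25). Erythroid markers summed to 252 to 451 and 1333 to 2855 CPM with 6 of 6 higher (Alas2 2.50), and endothelial markers to 1694 to 1753 and 2539 to 3622 CPM with 5 of 10 higher (Esam 1.55). Macrophage markers overlapped between groups, at 1587 to 1986 CPM in control and 1326 to 2064 CPM in cachexia, with 2 higher and 1 lower of 11. Mesothelial markers overlapped too, at 326 to 432 and 201 to 431 CPM with none of 8 past the threshold. Lymphocyte markers summed to 9.97 to 19 CPM in control and 5.95 to 9.95 CPM in cachexia with none of 7 tested past the threshold, and Leydig cell markers to 5.85 to 9.43 and 7.64 to 9.52 CPM with 1 of 3 tested higher. None of the 10 epididymal markers had enough reads to be tested, and 9 of them stayed under 1 CPM in all libraries.

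The 14 adipocyte markers had a median log2 fold change of -0.07 and ran from -1.44 to 1.08, with 9 below 0 and 5 above. Past the threshold, 2 were higher (Cidec 0.87, Pnpla2 1.08) and none lower. Libraries were also scaled to hold the mean log level of these 14 markers constant, a setting chosen after the data were seen. With it, 11 of the 16 genes still fell, and 855 of all 16003 tested genes fell, beside 1381 in the main fit. Acat2 (adjusted p = 0.187), Hmgcs1 (0.0635), Mvd (0.192), Lss (0.0507) and Srebf2 (0.0943) no longer passed the threshold, and their log2 fold changes were -0.62, -0.84, -0.81, -0.94 and -0.77. Under all 16 alternative settings tried, 8 of the 16 genes fell with an adjusted p under 0.05: Mvk, Idi1, Sqle, Msmo1, Nsdhl, Hsd17b7, Sc5d and Insig1. How many of all tested genes did so is not given here.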

How the data were processed

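Total RNA of eWAT from 3 control and 3 cachexia mice was sequenced as paired reads after NEBNext Ultra library preparation. Per the labels' processing notes, the authors aligned reads with Hisat2, counted reads per gene with featureCounts 1.5.0-p3 and used DESeq2 1.16.1. The deposited raw counts and the deposited FPKM values (read counts per gene length and library size, by the authors) were used. The labels name mm9, but the coordinates are those of GRCm38, and 28 of 29 members matched GENCODE M21 exactly (not Tm7sf2). A table of the authors' own comparison, with normalized values, fold changes and p-values, was not used.

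Here the counts of all 6 libraries were fitted with edgeR 4.0.16 in R 4.3.3: filterByExpr, TMM, quasi-likelihood test, no covariates, Benjamini-Hochberg adjustment over 16003 genes, biological coefficient of variation 0.264. Standard errors are the absolute log2 fold change over the square root of F. Within-mouse ratios used log2 FPKM with a pseudocount of 0.1 and a two-sided exact permutation test. The members and lists were chosen with earlier results of these data known. All members are named; of each other list, at most the 4 smallest p-values in each direction and Srebf1 are named, and at most 3 markers of each cell type. Faxdc2 was not matched. Genes of the acetyl-CoA and ketone body list other than those named are not reported here. Motifs were searched in RefSeq promoters (33 entries for 25 members). Alternatives used DESeq2 1.42.0, limma 3.58.1, other scalings, filters and pseudocounts, a replicate block and each mouse left out. The fit was tested on simulated data. No near-identical libraries were found among 15 pairs.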

Additional observations from a re-analysis of the deposited data

How the results depend on the processing

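Of 448 comparisons of a member's value with an alternative setting, 411 kept both direction and side of the threshold, 24 lost the call, 3 gained it and 10 turned the sign of a value near 0. The members that fell numbered 10 to 16 and those that rose 0 to 2 with 1 mouse left out. Over all tested genes, 446 to 1142 fell and 382 to 1197 rose when a mouse was left out, the lowest counts coming without control replicate 3, and without control replicate 2 the counts were 712 and 600. DESeq2 called 2 members higher, Insig2 being added. Scaling to the adipocyte markers, chosen after seeing the data, left 855 genes lower and 934 higher, with 11 members lower and 1 higher.

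Deviations from the group means were nearly uncorrelated between mice with the same replicate number (correlations -0.0031, -0.011 and 0.0085). The labels do not say whether these numbers pair the mice, and such correlations cannot decide it. With the replicate block, 14 members were lower and 1 higher, Hmgcs1 (adjusted p = 0.0519) and Mvd (0.0508) being lost, and 913 of all tested genes were higher and 968 lower. The cause was not tested.

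Signs turned for genes that passed in no setting. With plain library totals the log2 fold change was 0.034 for Ebp and 0.0071 for Scap, and scaled to the adipocyte markers it was 0.075 and 0.057. With 1 mouse left out it ran from -0.073 to 0.035 for Ebp, from -0.028 to 0.15 for Mbtps2, from -0.0056 to 0.18 for Ggps1 and from -0.11 to 0.039 for Scap. With 1 mouse left out the Insig1 to Insig2 log2 difference ran from -3.38 to -2.45 and that of Tm7sf2 to Lbr from -1.74 to -0.77. With a pseudocount of 1 they were -2.81 and -0.72, and from raw counts per kilobase -2.91 and -1.31. With the replicate block 1 electron donor gene was lower and 1 degradation gene higher, and scaled to the adipocyte markers 1 electron donor gene, 1 degradation gene and none of the non-sterol branches was lower and 1 degradation gene higher. The median over all genes was -0.0031, and with other scalings it was at most 0.0956. Fdps had too few reads to test.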
